A study of Mus musculus with 26 samples.

Results

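Deep first-intron peaks are peaks of RNA 5-hydroxymethylcytosine (5hmC) whose summit lay inside the first intron of a protein-coding gene and more than 200 bp from any exon. Peaks of 13 immunoprecipitated (IP) libraries were pooled, and the summit was taken as the midpoint of each listed interval. A summit was kept when it fell in intron 1 of the coding transcript with the longest coding sequence in GENCODE M1 (mouse build mm9), outside the exons of every coding transcript, and when its 200 bp interval held no tandem run of at least 18 nt of a unit of 1 to 4 nt. This left 6123 of 56538 peaks (10.8%), which merged into 2622 of 23367 regions. The rule took 8504 summits in intron 1, of which 6900 were over 200 bp from an exon, and it dropped 777 of those for a tandem run. Just inside the distance limit, 174 summits lay at most 250 bp from an exon, and just outside it 180 lay 150 to 200 bp away and were left out.

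The libraries came from mouse cells of 5 groups. The label WT ESC stands for wild-type mouse embryonic stem cells, kept on gelatin in serum with leukaemia inhibitory factor (LIF), and TKO ESC for stem cells with a triple knockout of Tet1, Tet2 and Tet3, kept in the same medium. WT EB are embryoid bodies, aggregates that wild-type stem cells formed over 4 days without LIF. Tet2-KI ESC are wild-type stem cells with a tagged Tet2 made at its own locus with the CRISPR-Cas9n system, and in Tet2deltaRBD-KI ESC the tagged protein lacks the RNA-binding domain. The knock-in lines go back to picked clones, and how many clones stand behind the libraries was not given in the sources used here. WT ESC, TKO ESC and WT EB have 3 IP libraries each and the knock-in groups 2 each, and every library was set against its own input when peaks were called. The p-values below measure the spread between these libraries.

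The deposited lists give positions, and for the WT ESC, TKO ESC and EB libraries also the fold enrichment of IP over input at the summit. They hold no read counts, so the depth behind a list is unknown. A region without a peak is one in which none passed the authors' threshold, which does not show that 5hmC was missing, and a weaker mark, less of the transcript and a shallower library cannot be told apart in such lists. Library totals ran from 498 to 10383 peaks, and replicate 1 had the shortest list in the 3 groups that have 3 libraries. The description of replicate 1 begins with 1608 or 1610 in these groups and that of replicates 2 and 3 with 1703, so values within the 1703 libraries are given where they differ. The lists carry no strand, and sequence was read on the strand of the gene. Peaks do not measure expression. Of the stem cell markers looked at, Esrrb was the 1 of 4 with a deep first intron that held a deep first-intron region, and of 7 early differentiation markers with such an intron 0 did.

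Tet enzymes oxidise 5-methylcytosine to 5hmC and are best known for doing so in DNA, where the product is an intermediate of demethylation. The first intron lies directly behind the first exon, is usually the longest intron of a mammalian gene, and its start often overlaps the CpG island of the promoter. It is transcribed early and removed by splicing, so it is found in pre-mRNA and in transcripts that retain it. In a part of the genes the first intron lies before the start codon and separates leader exons, which was so for 935 of the 2622 regions (35.7%). Counted by gene, it was so for 38.3% of the genes with a region and 35.8% of all genes with a deep first intron.

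The following intervals are shown as sequence (NCBIM37, the assembly behind mm9), because the results turn on their base content and on the libraries that had a peak there. Each is 200 bases on the strand of the gene, 5′ to 3′, with cytosines, the bases that can carry the mark, in capitals. Rnf169 (chr7:107115758-107115957, minus strand), Ncoa1 (chr12:4473641-4473840, minus strand) and Actn4 (chr7:29746291-29746490, minus strand) had a peak in all 13 libraries, and Strbp (chr2:37557044-37557243, minus strand) in 12. All of these are rich in purines and poor in cytosine. Alas2 (chrX:146985591-146985790, plus strand), also with a peak in 12 libraries, shows the opposite composition. Nedd4 (chr9:72510557-72510756, plus strand), with a peak in 11 libraries, and Trp53 (chr11:69394180-69394379, plus strand) lie 0.293 and 0.419 kb from the start of the gene, and Trp53 and Lama1 (chr17:68050954-68051153, plus strand) had a peak in every WT ESC library and in no TKO ESC or WT EB library.
Rnf169: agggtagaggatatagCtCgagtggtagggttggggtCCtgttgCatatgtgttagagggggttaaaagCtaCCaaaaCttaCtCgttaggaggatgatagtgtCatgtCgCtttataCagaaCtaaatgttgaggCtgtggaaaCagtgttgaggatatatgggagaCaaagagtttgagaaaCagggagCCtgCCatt
Ncoa1: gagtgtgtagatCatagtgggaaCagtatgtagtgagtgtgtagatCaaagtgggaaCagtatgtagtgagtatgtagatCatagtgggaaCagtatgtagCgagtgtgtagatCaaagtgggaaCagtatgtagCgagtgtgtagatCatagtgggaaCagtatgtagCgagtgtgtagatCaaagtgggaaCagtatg
Actn4: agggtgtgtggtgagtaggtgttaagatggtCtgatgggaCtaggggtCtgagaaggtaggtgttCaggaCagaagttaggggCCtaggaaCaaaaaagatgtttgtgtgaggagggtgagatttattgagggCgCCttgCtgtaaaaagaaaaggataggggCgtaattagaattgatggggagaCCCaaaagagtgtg
Strbp: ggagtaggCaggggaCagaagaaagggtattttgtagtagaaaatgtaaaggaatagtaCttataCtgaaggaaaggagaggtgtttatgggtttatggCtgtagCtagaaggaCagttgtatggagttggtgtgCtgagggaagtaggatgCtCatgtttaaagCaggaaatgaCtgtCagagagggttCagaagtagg
Alas2: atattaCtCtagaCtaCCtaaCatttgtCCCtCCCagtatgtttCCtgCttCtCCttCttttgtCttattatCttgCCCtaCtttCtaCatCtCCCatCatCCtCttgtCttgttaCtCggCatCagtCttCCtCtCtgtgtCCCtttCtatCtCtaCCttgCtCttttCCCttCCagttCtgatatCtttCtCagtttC
Nedd4: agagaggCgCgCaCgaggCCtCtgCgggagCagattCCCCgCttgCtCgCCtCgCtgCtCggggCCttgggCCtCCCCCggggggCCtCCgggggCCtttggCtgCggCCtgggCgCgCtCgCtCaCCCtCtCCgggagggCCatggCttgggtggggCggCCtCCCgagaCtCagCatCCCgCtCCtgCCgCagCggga
Trp53: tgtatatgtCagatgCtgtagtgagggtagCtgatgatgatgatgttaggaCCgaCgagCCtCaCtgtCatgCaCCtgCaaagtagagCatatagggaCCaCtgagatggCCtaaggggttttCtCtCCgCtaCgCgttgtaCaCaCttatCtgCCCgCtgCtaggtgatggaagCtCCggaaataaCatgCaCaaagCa
Lama1: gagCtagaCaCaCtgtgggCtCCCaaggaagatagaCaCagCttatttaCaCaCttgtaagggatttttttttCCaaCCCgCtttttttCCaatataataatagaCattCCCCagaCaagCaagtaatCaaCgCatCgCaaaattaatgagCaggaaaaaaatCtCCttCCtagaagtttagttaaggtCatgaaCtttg

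Purines made up 61.5% of the Rnf169 interval, 66.5% of Ncoa1, 68.5% of Actn4 and 68.0% of Strbp. Cytosines were few in these 4, with 24, 15, 16 and 14 among the 200 bases. The Ncoa1 interval is a repeat: 95.2% of its bases matched the base 34 positions away. Alas2 had 22.5% purines and 65 cytosines, and Nedd4 had 75 cytosines, 20 of them in CpG dinucleotides. Trp53 held 44 cytosines and 7 CpG, and Lama1 42 cytosines and 3 CpG.

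Deep first-intron regions were spread over 1533 of the 16067 coding genes that have a deep first intron (9.54%), and lay mostly in genes with a long one. The median first intron was 22.2 kb in the genes with a region and 4.14 kb in all genes with a deep first intron. The share of genes with a region rose with the deep length of the intron, from 1.59% below 2 kb to 9.04% at 5 to 10 kb, 26.8% at 20 to 50 kb and 41.1% at 100 kb or more. Per length, introns with a deep length below 2 kb held 21.2 regions per Mb, those between 2 and 50 kb 14.5 to 15.7, those of 50 to 100 kb 11.96 and those of 100 kb or more 7.16. Most genes had 1 region (1017), 516 had 2 or more and 69 had 5 or more. Of the genes with a region, 548 (35.7%) also had a deep peak in a later intron, against 15.3% of all genes with a deep first intron.

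The median region lay 11.4 kb from the start site (interquartile range 3.600 to 28.6 kb) and 38.9% of the way along its intron. The first 10% of the intron's length held 396 regions (15.1%) and the last 10% held 146 (5.57%). Per length the regions were densest next to the start site. There were 43.0 regions per Mb of deep first intron under 1 kb from the start, 17.9 at 1 to 2 kb, between 12.9 and 16.5 from 2 to 50 kb, 7.38 at 50 to 100 kb and 4.88 beyond 100 kb. Under 1 kb lay 279 regions (10.6%), against 3.27% of the deep first-intron windows of 200 bp.

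The density next to the start site varied between libraries. The density of peaks under 1 kb was above that at 20 to 50 kb in 13 of 13 libraries, by 1.04 to 9.93 times with a median of 3.35. It was above that beyond 100 kb in 13 of 13, by 3.14 to 31.3 times. It was above that at 1 to 2 kb in 11 libraries (ratio from 0.754), at 5 to 10 kb in 11 (from 0.736) and at 10 to 20 kb in 10 (from 0.706). In TKO ESC replicate 2 and in WT EB replicates 2 and 3 the density at 10 to 20 kb was above that under 1 kb. These distances were compared after the profile had been seen, so the counts are a description.

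**Figure D1:**
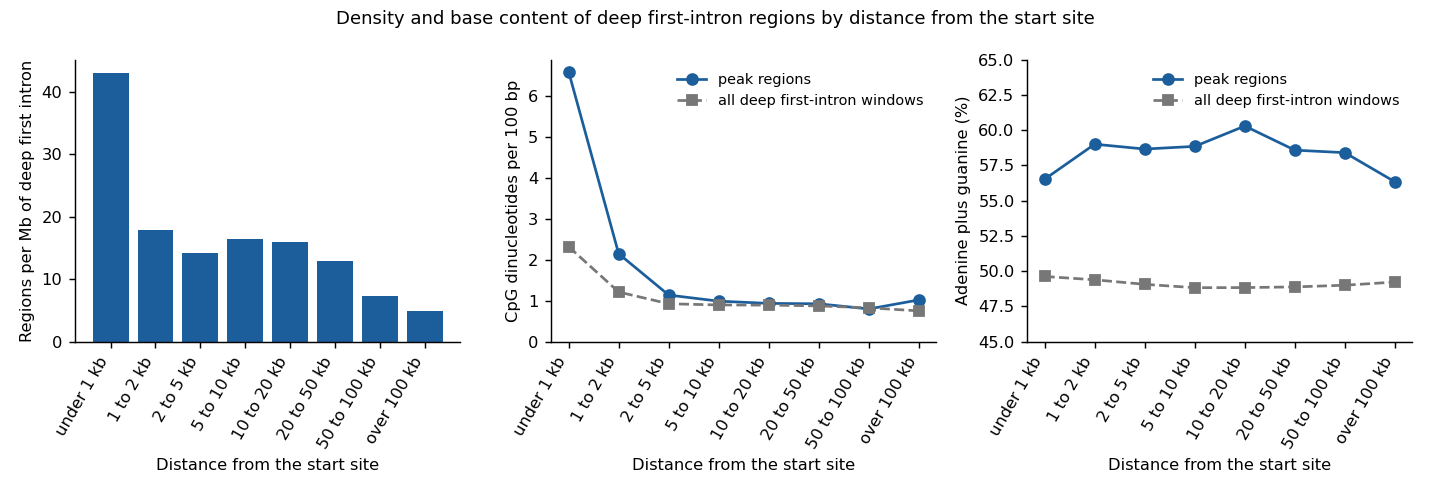
Density of deep first-intron regions (left, regions per Mb of deep first intron), CpG dinucleotides per 100 bp (middle) and adenine plus guanine in percent (right) against the distance from the start site. Circles are the peak regions and squares all deep first-intron windows of 200 bp; density and CpG are highest under 1 kb (43.0 per Mb and 6.60 CpG), while the purine content stays between 56.3% and 60.3% at every distance.

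CpG dinucleotides followed the same course. Regions under 1 kb from the start held 6.60 CpG per 100 bp, where the windows at that distance held 2.32. At 1 to 2 kb the values were 2.15 and 1.21, and from 2 kb on 0.967 and 0.859. Regions near the start therefore had more CpG than the windows at that distance, which come from genes with and without a region. Distant regions had nearly the CpG content of the windows. Sequence beside the regions was not compared. The motif GCGGCG was found in 79 regions (3.02%, against 0.247% of windows), and 60 of these lay under 2 kb, where 12.99% of regions and 1.42% of windows held it.

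Purine content, in contrast, was high at every distance. Over all regions, guanine made up 30.5% of the bases against 22.0% of the windows and adenine 28.1% against 27.0%, while cytosine made up 17.5% against 20.99% and thymine 23.9% against 30.002%. Purines thus came to 58.6% against 49.0%. Intervals with at least 65% purines numbered 628 (24.03%, against 1.57% of windows), and those with at least 65% pyrimidines 85 (3.25%, against 2.66%). The excess over the windows was on the purine side, and guanine made up most of it. Adenine depended on the distance: under 2 kb from the start it was 22.3% against 25.6% of the windows, and from 2 kb on 29.4% against 27.2%.

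A run of at least 12 purines was present in 939 regions (35.9%, against 13.3% of windows), and a run of at least 12 pyrimidines in 208 (7.96% against 17.0%). Short motifs, searched on the strand of the gene and chosen after the base content was known, followed: AGAGAG was present in 643 regions (24.6% against 9.41%), GAGGAG in 533 (20.4% against 7.63%) and GGGAGG in 574 (22.0% against 8.30%). GAGGAG and GGGAGG can overlap each other. The motifs read from the other strand were less frequent than in the windows, with TCTCTC in 6.12% against 9.46% and CTCCTC in 3.79% against 7.61%. AAAAAA was present in 10.2% of regions and 10.9% of windows. A further 74 regions (2.83% against 0.251%) were repeats of a unit of 5 to 60 nt, like that in Ncoa1, with at least 75% of bases matching; all 74 lay at 2 kb or more from the start, and 0 of 462 nearer to it. The p of such counts was not computed, since regions of the same libraries are not replicates.

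Bases were not placed evenly around the summit. Here every peak counts, so a region with peaks in several libraries enters more than once. Guanine rose on the 5′ side of the summit in the direction of transcription, to 35.7% at 115 nt before it in the 4974 peaks 2 kb or more from the start, against 29.2% at the summit, and cytosine was lowest there, at 11.5% against 15.7%. Averaged over 50 to 150 nt on each side, guanine was 34.9% before and 29.6% after the summit, and cytosine 13.8% before and 17.5% after. Guanine was higher before the summit in 13 of 13 libraries (by 1.98 to 6.81 percentage points) and cytosine lower in 13 of 13 (by −4.35 to −1.90 points). The guanine difference was 5.46 points in genes on the plus strand and 5.02 points in genes on the minus strand, so it followed the transcript and not the reference strand. Peaks of later introns had the same shape, with a guanine maximum of 35.8% at 115 nt before the summit.

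**Figure D2:**
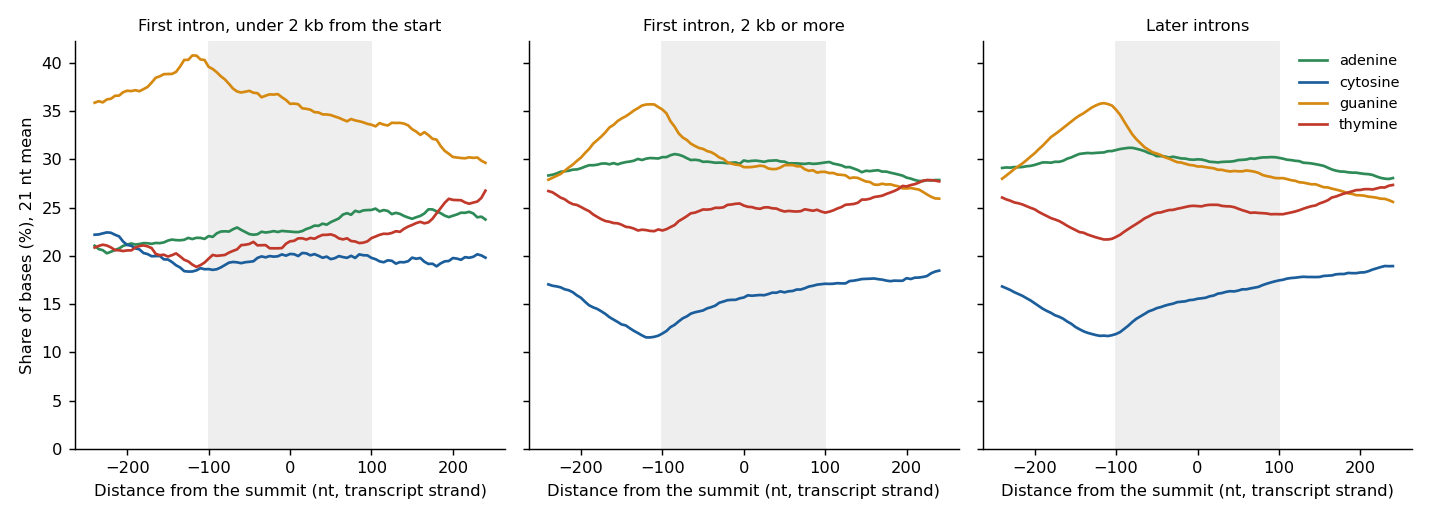
Share of each base in percent (mean over 21 nt) against the distance from the summit in nt on the transcript strand, for 1123 first-intron peaks under 2 kb from the start, 4974 at 2 kb or more, and 12635 peaks of later introns; the grey band is the listed 200 bp interval. Guanine peaks and cytosine dips about 115 nt before the summit, in first and later introns alike.

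Recurrence across libraries was low for most regions. The same counts over all regions of the series are not given here, so they do not show a trait particular to deep first introns. A peak in 1 library was seen for 1370 regions (52.3%), in 2 libraries for 489 and in 3 for 243, while 240 had a peak in 6 or more libraries and 3 in all 13. Counted by group, 1533 regions (58.5%) had peaks in 1 group and 97 (3.70%) in all 5. Regions with peaks in knock-in libraries only have no fold enrichment and do not enter its medians here. The regions in 6 or more libraries had a median fold enrichment of 7.72 against 5.22 for those in 1 library. They also held more purines (61.4% against 57.9%), less cytosine (14.9% against 18.1%) and more repeats of a 5 to 60 nt unit (7.14% against 1.76%).

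The Rnf169 region, in the gene of a ubiquitin-binding protein of the DNA double-strand break response, lay 13.1 kb from the start. Its fold enrichment was 7.71, 8.89 and 15.1 in WT ESC, 7.23, 30.8 and 20.7 in TKO ESC, and 8.22, 21.3 and 9.92 in WT EB. All groups overlapped, and its highest value was in a TKO ESC library. The Ncoa1 region, 10.3 kb into the gene of a nuclear receptor coactivator, had values of 10.7, 22.3 and 22.3 in WT ESC, 4.89, 26.5 and 16.4 in TKO ESC, and 6.11, 12.8 and 6.80 in WT EB. Here replicate 1 was the lowest of each group. The Actn4 region, in the gene of an actin cross-linking protein, lay 0.968 kb from the start, with values of 5.15, 15.6 and 7.59 in WT ESC, 7.88, 11.4 and 13.3 in TKO ESC, and 5.46, 9.09 and 7.17 in WT EB. The 3 regions had peaks in all 4 knock-in libraries as well.

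Strbp, which encodes an RNA-binding protein, Alas2, which encodes the erythroid enzyme that starts haem synthesis, Oaz1, the antizyme that controls polyamine synthesis, and 2900026A02Rik were without a peak only in WT EB replicate 1, and Gopc and Ahnak2 only in TKO ESC replicate 1. Both of these libraries are among the shortest lists. Strbp had fold enrichments of 11.2, 13.1 and 17.6 in WT ESC, 7.65, 23.6 and 18.7 in TKO ESC and 11.1 and 12.3 in 2 WT EB libraries. Alas2 had 5.64, 18.2 and 18.8 in WT ESC, 14.4, 13.3 and 15.4 in TKO ESC and 7.34 and 10.4 in WT EB. For both genes the stem cell groups overlapped. The values of 2900026A02Rik in WT ESC, at 14.6, 14.6 and 10.1, did not overlap with 6.37, 5.99 and 4.67 in TKO ESC or 5.76 and 4.52 in WT EB. For Oaz1, WT ESC (9.52, 9.13 and 9.97) did not overlap with TKO ESC (8.23, 7.09 and 5.13) but did with WT EB (9.82 and 9.27). These regions were picked out from the 10 after their values were seen. The share of all regions without such overlap was not counted. The Nedd4 region, in the gene of a ubiquitin ligase, lay 0.293 kb from the start and had the highest mean of the 10, with 34.5, 20.5 and 22.0 in WT ESC, 34.1 and 15.6 in TKO ESC replicates 1 and 3, and 31.4 and 20.1 in WT EB replicates 1 and 2.

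**Figure D3:**
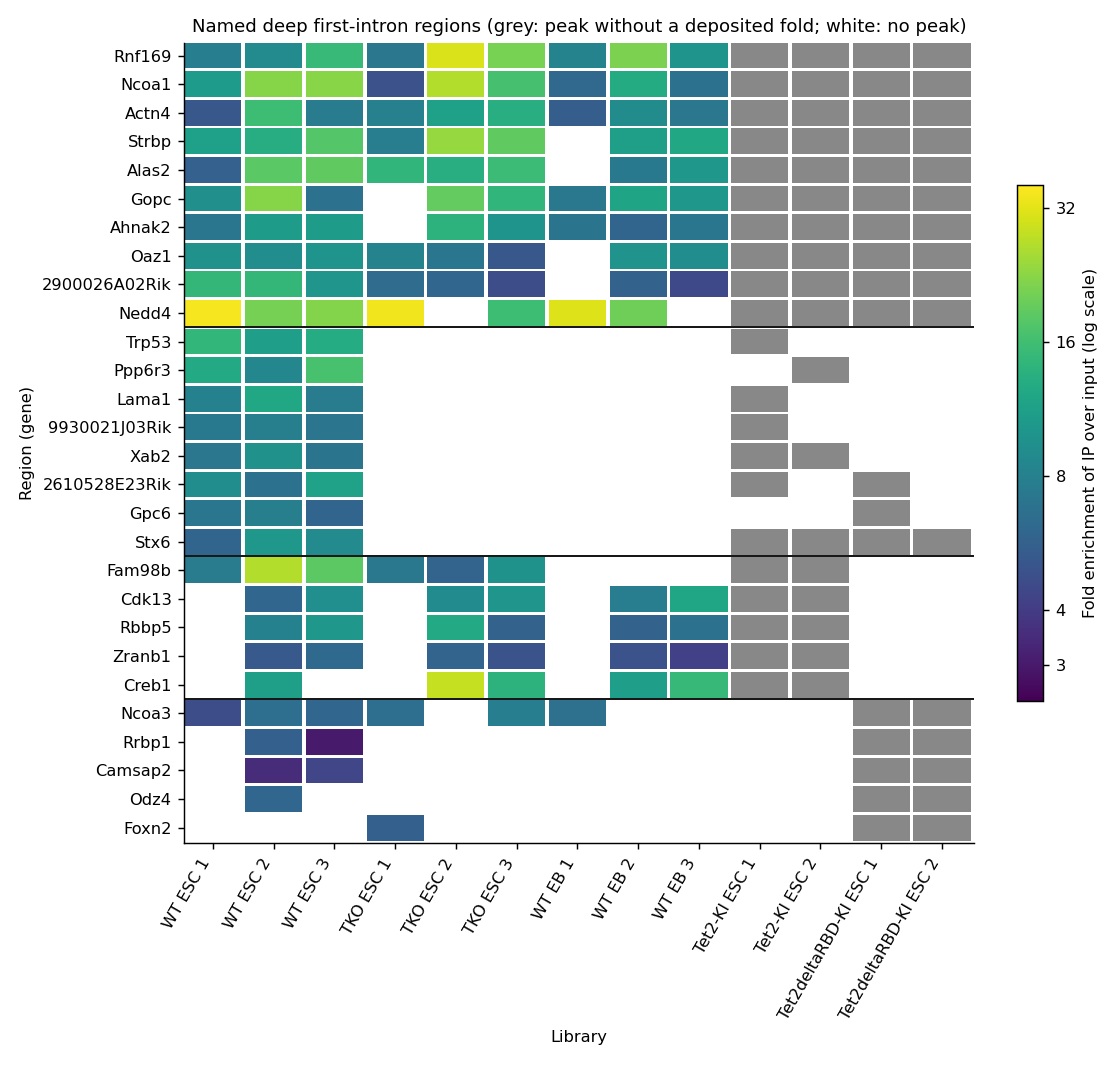
Fold enrichment of IP over input (colour, log scale) of named regions (rows, by gene) in the 13 libraries (columns). Grey cells are peaks in the knock-in lists, which give no fold, and white cells have no peak; the blocks divided by lines are the 10 regions in most libraries, the 8 with peaks in WT ESC and not in TKO ESC or WT EB, and the 5 each that separate Tet2-KI ESC from Tet2deltaRBD-KI ESC.

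The 5 genes with the most regions have long first introns. Rora, a nuclear receptor gene, had 19 regions in 542 kb, Pde4d, a cyclic AMP phosphodiesterase gene, 18 in 623 kb, Agap1 13 in 149 kb and Magi1 12 in 340 kb. Gm20388 had 34, but its model spans 4384 kb of first intron across other genes. Per deep length, Agap1 had 8.78 regions per 100 kb and Rora 3.53. Among regions replicated in at least 1 group, the nearest to a start site were in Nedd4 (0.293 kb), Eef2 (0.312 kb), the translation elongation factor gene, and Thoc7 (0.321 kb), an mRNA export factor gene. The farthest outside Gm20388 was in Pde4d at 396 kb, with 8.65, 13.8 and 19.2 in WT ESC and 13.3 and 18.4 in TKO ESC replicates 2 and 3.

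Numbers of deep first-intron peaks differed widely between libraries. WT ESC libraries held 343, 756 and 659 deep first-intron peaks (mean 586 ± 216, SD, n = 3), TKO ESC 71, 485 and 313 (290 ± 208, n = 3) and WT EB 58, 123 and 215 (132 ± 78.9, n = 3). Tet2-KI ESC held 1206 and 858 and Tet2deltaRBD-KI ESC 677 and 359. WT ESC and TKO ESC overlapped through WT ESC replicate 1 and TKO ESC replicate 2, whose descriptions begin with different prefixes, and WT ESC was above TKO ESC at each replicate number. Every WT EB library was below every WT ESC library. On the log2 scale WT ESC exceeded TKO ESC by 1.33 (two-sided exact permutation test, p = 0.2) and WT EB by 2.27 (exact permutation p = 0.1), and Tet2-KI ESC exceeded Tet2deltaRBD-KI ESC by 1.05 (exact permutation p = 0.333). With 3 libraries against 3 the exact permutation test cannot go below 0.1, and with 2 against 2 not below 0.333. None of the 17 comparisons of groups could therefore reach 0.05, and the lowest Benjamini-Hochberg adjusted p over the 17 exact permutation tests was 0.63. Within the 1703 libraries, where the groups did not overlap, the log2 differences were 0.86 from TKO ESC and 2.12 from WT EB. Without TKO ESC replicate 1 the difference from TKO ESC was 0.51, and without Tet2deltaRBD-KI ESC replicate 2 that between the knock-in groups was 0.59.

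As a share of the peaks in coding genes, deep first-intron peaks made up 11.5, 14.2 and 14.2% in WT ESC, 9.07, 12.5 and 11.6% in TKO ESC, 12.7, 7.56 and 6.56% in WT EB, 14.3 and 16.5% in Tet2-KI ESC, and 16.7 and 11.8% in Tet2deltaRBD-KI ESC. WT ESC was 2.25 percentage points above TKO ESC (exact permutation p = 0.3) and 4.34 points above WT EB (exact permutation p = 0.2), with overlap in both. Without TKO ESC replicate 1 the difference from TKO ESC was 1.27 points. Tet2-KI ESC was 1.12 points above Tet2deltaRBD-KI ESC (exact permutation p = 1), and this difference was −1.33 points without Tet2deltaRBD-KI ESC replicate 2, 3.57 without its replicate 1, −0.0092 without Tet2-KI ESC replicate 2 and 2.25 without its replicate 1. Within the 1703 libraries, WT ESC was above TKO ESC by 2.18 points and above WT EB by 7.14 points, without overlap. Among deep intronic peaks, first and later introns together, the first intron held between 28.9% and 41.4% in all libraries, with group differences of −0.44 (TKO ESC), −2.45 (WT EB) and −5.43 points (the knock-in groups).

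**Figure D4:**
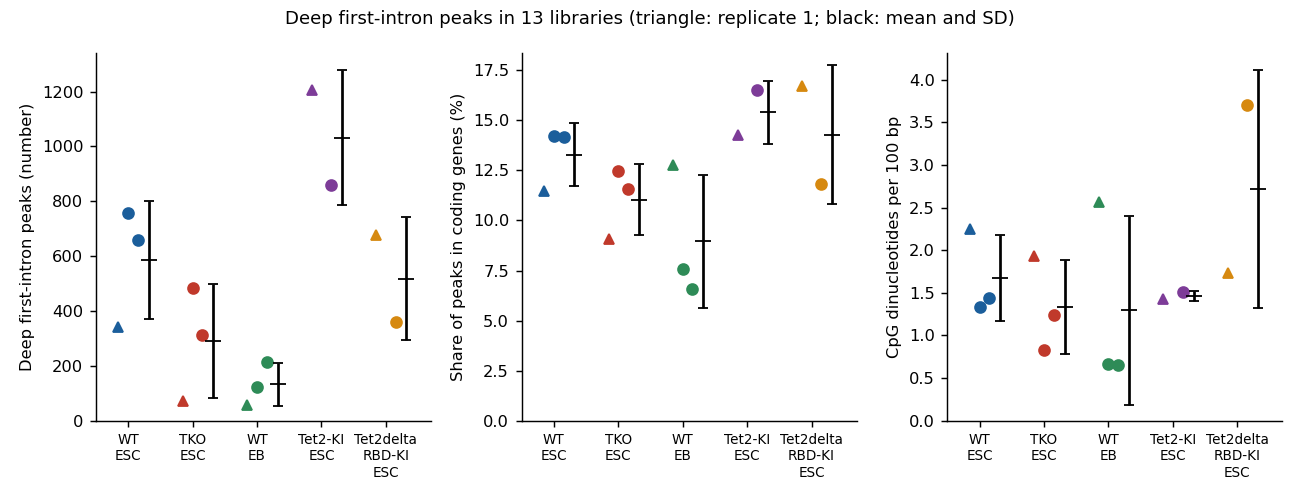
Number of deep first-intron peaks (left), their share of the peaks in coding genes in percent (middle) and CpG dinucleotides per 100 bp of their intervals (right) in each of 13 libraries, by group. Triangles mark replicate 1 and black bars the mean and SD; in each group of 3 libraries replicate 1 has the fewest peaks and the highest CpG content.

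Base content differed between libraries. CpG dinucleotides per 100 bp came to 2.25, 1.33 and 1.44 in WT ESC, 1.93, 0.832 and 1.24 in TKO ESC, 2.57, 0.663 and 0.649 in WT EB, 1.42 and 1.51 in Tet2-KI ESC and 1.74 and 3.71 in Tet2deltaRBD-KI ESC. Replicate 1 was the highest in each of the 3 groups with 3 libraries, and it also had the largest share of peaks under 2 kb from the start in these groups (24.5% for the wild-type stem cells, 25.4% for the triple knockout and 24.1% for the embryoid bodies, against 9.69 to 16.8% in replicates 2 and 3). The largest share of all was in Tet2deltaRBD-KI ESC replicate 2, at 35.9%. The part of the prefix in these differences was not tested. The median distance to the start ran from 6.87 kb in that library to 14.1 kb, and the groups differed in it by −0.03 (TKO ESC), −0.04 (WT EB) and 0.28 (knock-in groups) on the log2 scale (exact permutation p = 0.8, 0.8 and 1).

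Pyrimidine content was higher in every WT ESC library than in every TKO ESC library. Deep first-intron peaks held 40.9, 41.9 and 41.6% pyrimidines in WT ESC and 38.4, 38.2 and 39.0% in TKO ESC. The groups did not overlap, and the difference of 2.94 percentage points had the smallest p that 3 against 3 can give (two-sided exact permutation p = 0.1). Within the 1703 libraries it was 3.15 points. WT EB had 42.1, 38.3 and 38.4%, which overlapped with WT ESC (difference 1.87 points, exact permutation p = 0.4), and its replicate 1 was the highest of all libraries. Without that replicate the difference was 3.12 points with no overlap (exact permutation p = 0.1, the smallest that 3 against 2 can give), and within the 1703 libraries it was 3.40 points, about as large as that from TKO ESC. Without WT EB replicate 2 it was 1.23 points. The knock-in groups had 39.7 and 39.8% (Tet2-KI ESC) and 40.0 and 41.0% (Tet2deltaRBD-KI ESC), a difference of −0.78 points (exact permutation p = 0.333), which was −1.28 without Tet2deltaRBD-KI ESC replicate 1 and −0.27 without its replicate 2. In later introns WT ESC had 41.0, 41.2 and 41.0% and TKO ESC 35.8, 38.5 and 40.5%, again without overlap.

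Deep first introns were compared with deep later introns within each library, by the same rule. First introns held 217 Mb of deep sequence and later introns 572 Mb, with 12662 peaks in 5450 regions in the latter. Tandem runs were left in these lengths, although peaks with such a run were dropped. Peak density was higher in first introns in 13 of 13 libraries, by a ratio of 1.07 to 1.86 and a mean of 0.38 ± 0.26 on the log2 scale (SD over libraries, n = 13). The p of the two-sided exact sign-flip permutation test over libraries was 0.000244, the smallest it can give, and 0.000977 after Benjamini-Hochberg adjustment over 4 such tests. More than 1000 bp from any exon the log2 ratio was 0.26. It was 0.17 in the 6 libraries of the 1703 prefix, 0.52 in the 3 of 1608 and 1610 and 0.60 in the 4 knock-in libraries. The libraries share cells and regions, so these p-values measure how far libraries agree and not a spread between independent cultures.

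First-intron peaks also held more CpG, with 1.64 per 100 bp on average against 0.839 in later introns (difference 0.80 ± 0.74, SD over libraries, higher in 12 of 13, exact sign-flip permutation p = 0.000732, adjusted 0.00146). This difference was 0.041 more than 1000 bp from any exon (exact sign-flip permutation p = 0.308) and 0.28 within the 1703 libraries (exact sign-flip permutation p = 0.0938), so the call was lost in both. Pyrimidine content was 0.59 percentage points higher in first introns (10 of 13 libraries, exact sign-flip permutation p = 0.0745) and −0.15 points more than 1000 bp from any exon. Without TKO ESC replicate 3 the difference was 0.76 points (exact sign-flip permutation p = 0.00977). Fold enrichment, in the 9 libraries that give it, differed by −0.03 on the log2 scale (higher in 3 of 9, exact sign-flip permutation p = 0.109).

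**Figure D5:**
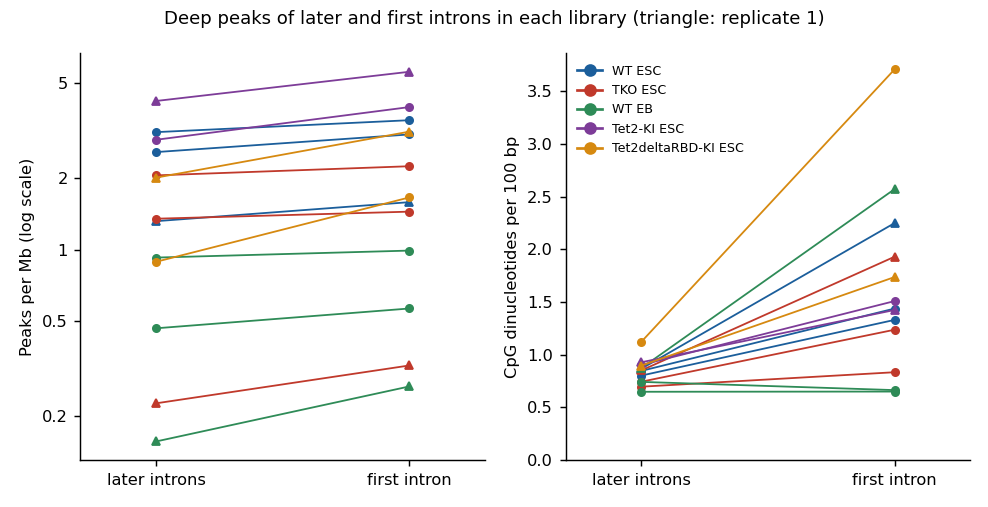
Peaks per Mb of deep intron (left, log scale) and CpG dinucleotides per 100 bp of the intervals (right) in later and first introns. Each line is 1 of 13 libraries, coloured by group, with triangles for replicate 1; density rises from later to first introns in 13 of 13 libraries and CpG content in 12.

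WT ESC were compared with TKO ESC by the presence of peaks, which cannot show by itself that a peak needs the Tet enzymes. A region was called replicated in a group when each of its libraries had a peak there. Of the 1212 deep first-intron regions with a WT ESC peak, 141 were replicated (11.6%), and of 645 with a TKO ESC peak 27 (4.19%). Over all regions of the series the replicated shares were 13.2% and 5.90%. Among the 141 regions, 43 were without a peak in all TKO ESC libraries (30.5%, exact Clopper-Pearson 95% interval 23.0 to 38.8%). Over all regions of the series this share was 32.2%, and in deep later introns 30.03%. In the opposite direction, 0 of 27 regions replicated in TKO ESC lacked a WT ESC peak (Clopper-Pearson upper limit 12.8%), against 1.73% over all regions. Deep first introns were thus near the series at large in both directions. The intervals cover counting error only. Leaving out WT ESC replicate 1 gave 324 replicated regions and a share of 39.5%, and leaving out TKO ESC replicate 1 gave 172 replicated in TKO ESC. The values over all regions with the same library left out are not given here, so 39.5% cannot be set against 32.2%.

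Among the peaks that passed the threshold, fold enrichment overlapped between WT ESC and TKO ESC. The median over deep first-intron peaks was 6.53, 5.98 and 6.12 in WT ESC and 6.71, 7.35 and 6.42 in TKO ESC, a log2 difference of −0.13 (exact permutation p = 0.2). In the 20 regions with peaks in all 6 libraries the median log2 difference of WT ESC from TKO ESC was 0.22, and 13 of the 20 were higher in WT ESC. Over the 98 replicated WT ESC regions with a peak in at least 1 TKO ESC library it was 0.02, and 48 of the 98 were higher in TKO ESC. The 43 regions without a TKO ESC peak had a median fold enrichment of 7.12 in WT ESC, against 8.90 for the 98 with one. Only peaks above a threshold enter these medians.

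Of the 141 regions with peaks in all 3 WT ESC libraries, 33 had none in TKO ESC or WT EB. The same share over all regions of the series is not given here. Highest among them, by the lowest WT ESC value, was the Trp53 region in the gene of the tumour suppressor p53, 0.419 kb from the start in an intron before the coding sequence, with fold enrichments of 14.4, 11.02 and 12.9 (mean 12.8 ± 1.70, SD, n = 3). It also had a peak in Tet2-KI ESC replicate 1. Ppp6r3, a regulatory subunit of protein phosphatase 6, followed with 12.5, 8.56 and 16.6 (chr19:3557313-3557606). Lama1, the laminin α1 chain gene, had 7.98, 12.2 and 7.55, and Xab2, a splicing and DNA repair factor gene, 7.19, 9.54 and 6.97. Stx6, which encodes a SNARE protein of the trans-Golgi network, had 5.91, 10.3 and 8.88 and peaks in all 4 knock-in libraries, and its interval is a repeat with a period of 46 nt (82.5% of bases matching). The others were Gpc6, 2610528E23Rik and 9930021J03Rik, with lowest values of 5.93, 6.73 and 7.01. The rule chose these regions for the pattern, so it is a description.

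The comparison of WT ESC with WT EB asks how peaks change when stem cells leave self-renewal. WT EB had peaks in 288 deep first-intron regions, of which 7 were replicated (2.43%, against 2.79% over all regions). Of the 141 replicated WT ESC regions, 87 had no WT EB peak (61.7%, Clopper-Pearson 53.1 to 69.8%), against 54.9% of all regions of the series and 60.1% in deep later introns. None of the 7 replicated WT EB regions lacked a WT ESC peak (0 of 7, upper limit 41.0%), against 2.61% over all regions. The 87 regions had a median fold enrichment of 7.80 in WT ESC and the 54 with a WT EB peak 9.86. The median over all deep first-intron peaks was 5.43, 6.68 and 6.34 in WT EB, a log2 difference of 0.02 from WT ESC (exact permutation p = 0.9). Without WT EB replicate 1, which has 58 such peaks, 83 regions were replicated in WT EB, and without its replicate 3 the count was 13. Both comparisons share the WT ESC libraries.

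The knock-in groups compare tagged Tet2 with and without its RNA-binding domain. Of 1611 deep first-intron regions with a Tet2-KI ESC peak 448 were replicated (27.8%), and of 860 with a Tet2deltaRBD-KI ESC peak 201 (23.4%). Over all regions the replicated shares were 24.1% and 21.8%. No Tet2deltaRBD-KI ESC peak was found in 149 of the 448 (33.3%, Clopper-Pearson 28.9 to 37.8%), near the 35.6% over all regions and 36.4% in deep later introns. This share was 65.1% without Tet2deltaRBD-KI ESC replicate 1, 38.7% without its replicate 2, and 54.6% and 61.3% without Tet2-KI ESC replicate 1 and 2. The shares over all regions with the same library left out are not given here, so these values cannot be set against 35.6%. With 1 library left, every region with a peak in it counts as replicated, and the counts were then 855 and 1199 in Tet2-KI ESC and 363 and 697 in Tet2deltaRBD-KI ESC without replicate 1 and 2. In the opposite direction 23 of 201 regions had no Tet2-KI ESC peak (11.4%, 7.39 to 16.7%), against 15.8% over all regions and 5.06% in deep later introns.

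Both sets of regions lay in different places. Of the 23 regions with peaks in both Tet2deltaRBD-KI ESC libraries and neither Tet2-KI ESC library, 14 were under 2 kb from the start (60.9%), and their intervals held 7.26 CpG per 100 bp. Of the 149 with the opposite pattern, 27 were under 2 kb (18.1%), with 1.26 CpG per 100 bp. The median distances were 1.32 kb and 8.80 kb. This was seen after the regions had been chosen and was given no test, and the share of peaks under 2 kb was 22.5% and 35.9% in the Tet2deltaRBD-KI ESC libraries against 18.0% and 18.6% in the Tet2-KI ESC libraries. A WT ESC peak was present in 71 of the 149 and 5 of the 23.

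Among the 23, Ncoa3 (chr2:165818366-165818637), a nuclear receptor coactivator gene, had its region 0.343 kb from the start with 16.5 CpG per 100 bp, and fold enrichments of 4.65, 6.51 and 6.04 in WT ESC. Rrbp1, a ribosome-binding protein of the endoplasmic reticulum, had 11.5 CpG per 100 bp 0.818 kb from the start, and Foxn2, a forkhead factor gene, 11.5 at 0.895 kb. Camsap2 and Odz4 lay farther in, at 8.02 and 81.6 kb, with no CpG in the interval. Among the 149, Fam98b had peaks in all WT ESC (7.58, 26.5 and 18.4) and TKO ESC libraries (7.25, 5.85 and 9.68). Creb1, a cyclic AMP response factor, Cdk13, a transcriptional kinase, Rbbp5, a subunit of the MLL histone methyltransferases, and Zranb1, a deubiquitinase, each had peaks in 2 TKO ESC and 2 WT EB libraries. Creb1 was the highest of these, with 28.5 and 13.9 in TKO ESC and 11.01 and 14.9 in WT EB.

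Gene groups are given by how many of their genes with a deep first intron held a region, beside 9.54% over all such genes and 2.91% with a replicated region. Long introns hold more regions, so the counts depend on intron length. In the knock-in groups 2 libraries suffice for a region to be replicated. Of the genes in these groups, only Hnrnpa3 and Jarid2 had a region replicated in WT ESC. All others called replicated were so in a knock-in group only. Signalling by LIF, FGF and Wnt, the pathways that keep mouse stem cells in self-renewal or move them out of it, had regions in 11 of 27 genes (40.7%, median intron 10.1 kb), and 4 were replicated. The LIF receptor Lifr had a region with peaks in both Tet2-KI ESC libraries and Tet2deltaRBD-KI ESC replicate 1, and Gsk3b, a kinase that marks β-catenin for decay, one with peaks in both Tet2-KI ESC libraries, Tet2deltaRBD-KI ESC replicate 1 and TKO ESC replicate 2 (6.25). Ctnnb1, β-catenin itself, had one with a peak in WT ESC replicate 1 (9.97) and 3 knock-in libraries. RNA-binding and splicing proteins had regions in 10 of 30 genes (33.3%, median intron 3.23 kb), and 5 were replicated. Hnrnpa3 had peaks in 10 libraries 0.441 kb from the start, with 15.0 CpG per 100 bp and fold enrichments of 3.89, 4.34 and 5.65 in WT ESC and 5.19 and 6.02 in TKO ESC replicates 2 and 3. Srsf10, a splicing regulator, had peaks in 6 libraries with 12.5 CpG per 100 bp.

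Lysine demethylases had regions in 4 of 18 genes (22.2%; Jmjd1c, Kdm4b, Kdm5b and Kdm6b), 3 of them replicated, in knock-in groups only. The Jmjd1c region was not replicated in any group but had peaks in 8 libraries, with 5.05 and 6.50 in WT ESC and 21.5 and 11.6 in TKO ESC replicates 2 and 3. Polycomb repressive complex 2 had regions in 2 of 10 genes. Its cofactor Jarid2 had 9 regions, of which chr13:44828743-44828969, with 12.5 CpG per 100 bp, had peaks in all WT ESC libraries (7.17, 5.16 and 8.29) and in 3 knock-in libraries, and in no TKO ESC or WT EB library. Of the 9, 3 had a peak in 1 TKO ESC library, with values of 7.66, 5.62 and 4.09, and 2 of these 3 had no peak in any other library. A further region, chr13:44864166-44864411, had 8.46, 6.10 and 10.2 in WT ESC, 4.88 in WT EB replicate 1 and no TKO ESC peak. Mtf2 had 2 regions that were not replicated.

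Neuronal guidance and adhesion genes had regions in 5 of 36 (13.9%), although their median first intron was 58.4 kb. Dab1, an adaptor of reelin signalling, had 6 regions. Core pluripotency factors had regions in 2 of 16 genes (12.5%), Esrrb and Zfx, and 0 were replicated. The region of Esrrb, an orphan nuclear receptor of the pluripotency network, with the most libraries had 5.73 and 6.74 in WT ESC replicates 1 and 3 and no other peak, and 37.5% purines. BAF remodelling complex genes had regions in 2 of 19 (10.5%; Arid1a and Arid1b), and genes of DNA methylation and demethylation in 1 of 13 (7.69%; Gadd45g). Tet1 and Tet2 have a deep first intron and held no region, and peak lists cannot check the knockout.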

How the data were processed

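RNA 5hmC was profiled by hMeRIP-seq in 13 IP libraries of mouse cells, each with an input library. Per the paper's methods, reads of low complexity or from rRNA and tRNA were discarded, the rest were trimmed with Trimmomatic and aligned to mm9 with STAR, and the authors ran MACS2 on each IP with the matching input (q-value threshold 0.05), without pooling replicates. The deposited lists hold intervals of 200 bp around summits and, for 9 libraries, a ratio, the fold enrichment of IP over input; knock-in lists hold positions only. Depth is unknown, which limits the precision of every comparison.

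Summits were placed in GENCODE M1 genes on NCBIM37. Of all intervals, 99.7% lay on its chromosomes, and no pair of libraries among 78 shared more than 1.97% identical intervals. Member intervals overlapping by at least 1 bp were merged, and presence counted any interval of a library. For a summit in several coding genes the nearest start site was used. Background windows of 200 bp tiled deep first introns under the same filters. Numbers of peaks and fold enrichments were log2-transformed. Libraries were compared by exact permutation tests, shares carry exact Clopper-Pearson intervals at 95%, and the code was tested on simulated data. Alternatives were other rules for members and presence, stricter or equally long lists, the 1703 libraries alone, a replicate block and leaving out each library. Named regions were the 10 in most libraries (ties by mean log2 fold enrichment), the 8 WT ESC regions without TKO ESC or WT EB peaks with the highest lowest value, 5 for each knock-in pattern, the 5 genes with most regions, the 3 nearest and farthest replicated regions, and members of the gene lists. The members and the lists were chosen with earlier results of these data known. Python 3.11.15, pandas 2.3.3, numpy 2.4.6, scipy 1.17.1 and matplotlib 3.10.9 were used.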

Additional observations from a re-analysis of the deposited data

How the results depend on the processing

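The 29 results were recomputed to give 425 alternative values, of which 362 stayed the same. For tested results this means the same direction and the same side of the threshold. The 17 group comparisons cannot pass the threshold in any setting, so only their sign could change. The 17 values of the replicate block are the same by construction. The count of 362 is therefore partly fixed in advance and does not measure stability. Counts of replicated regions had to stay within a factor of 1.5, and shares of such regions within the Clopper-Pearson interval. The cause of the changes below was not tested. The group differences in the median distance to the start, near 0 and without a call, changed sign most often (log2, from TKO ESC and from WT EB): 0.0886 and 0.0932 with tandem runs kept, 0.0490 and 0.0569 more than 1000 bp from any exon, 0.0133 and 0.00976 with the transcript of the longest span, and 0.0124 and 0.0150 in the 1703 libraries. From WT EB it was also 0.30 for peaks above the median of their list and 0.0114 with lists of equal length (498 peaks), and between the knock-in groups −0.20 more than 1000 bp from any exon. At that distance the pyrimidine difference was 0.22 points between the knock-in groups and −0.15 between first and later introns, the CpG difference between introns was 0.041, and 122 regions were replicated in Tet2deltaRBD-KI ESC.

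In the 1703 libraries alone the first-intron share of deep intronic peaks differed by 1.35 (TKO ESC) and 0.27 points (WT EB), the log2 fold enrichment by −0.11 (WT EB), replicated regions numbered 322 in WT ESC, 173 in TKO and 84 in EB libraries, and 41.3% and 72.0% of replicated WT ESC regions had no TKO ESC or WT EB peak. With 2 libraries in place of 3 a region is replicated more easily, and the shares over all regions in these libraries are not given here. Peaks above the median of their list gave −0.0787 for the log2 fold enrichment (WT EB) and 61, 12 and 4 replicated regions, and lists of equal length gave 0.13 (TKO ESC). Comparing first with later introns by prefix was chosen after seeing the data: CpG differed by 0.28 (1703), 1.39 (1608 and 1610) and 1.13 (knock-in), the log2 density ratio by 0.52 and 0.60 in the latter sets, which are too few libraries to pass the threshold, and pyrimidines by −0.0295 points (1703).

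Leaving out 1 library gave these ranges for WT ESC against TKO ESC: log2 number 0.51 to 1.90, share of genic peaks 1.27 to 3.16, distance −0.0914 to 0.0654, first-intron share −1.59 to 1.64, regions without a TKO ESC peak 33.9 to 44.0%. Against WT EB they were log2 number 1.77 to 2.72, share of genic peaks 3.14 to 6.23, pyrimidines 1.23 to 3.12, distance −0.0994 to 0.0575, first-intron share −4.61 to 0.56, fold enrichment −0.0693 to 0.0801 and regions without a WT EB peak 65.5 to 70.0%. For the knock-in groups they were log2 number 0.59 to 1.503, distance −0.00563 to 0.565, share of genic peaks −1.33 to 3.57 and regions without a Tet2deltaRBD-KI ESC peak 38.7 to 65.1%. Replicated regions numbered 174 to 324 (WT ESC), 36 to 172 (TKO ESC), 10 to 83 (WT EB), 855 to 1199 (Tet2-KI ESC) and 363 to 697 (Tet2deltaRBD-KI ESC). With 1 library fewer a region is replicated more easily, and these counts all lie above those from all libraries. The shares of regions without a peak also lie above those from all libraries. Such shares over all regions of the series are not given here. The pyrimidine difference between introns ran from 0.42 to 0.76.

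The main tests did not pair libraries by replicate number. Presence of peaks, as deviation from the group mean, correlated in same-numbered libraries at 0.17, 0.05 and 0.03 (WT ESC and TKO ESC), 0.09, 0.01 and 0.03 (WT EB) and 0.03 (knock-in). These were all positive, but not all above 0.1. Differently numbered libraries correlated at −0.12 to 0.06 (WT ESC and TKO ESC) and −0.06 to 0.02 (WT EB). In the knock-in groups their value is the same with the opposite sign, by construction. With the replicate block the 17 differences are the same by construction (1.33, 2.27 and 1.05 for the log2 numbers of peaks), and the exact permutation p cannot go below 0.25 or 0.5, so the block says nothing on their stability. Depth, unknown here, limits every statement on a missing peak.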
